A study of Mus musculus with 20 samples.

Results

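The AP-1 and related bZIP factors examined here were the 10 genes Fos, Fosb, Fosl1, Fosl2, Jun, Junb, Jund, Atf3, Maff and Batf, each taken as the row with that gene symbol among the 37681 genes of the tables. All 10 were found, and 8 of them were among the 15578 genes tested. Fosb and Fosl1 had too few reads. The livers came from 10 male mice of the strain labelled C57/BL6 (C57/B6J in the protocol), all aged 12 weeks. Of these, 5 were given IL-1β at 20 µg/kg and 5 were given saline and are called untreated. Tissue was taken 4 hours later, and RNA of each liver was sequenced on Illumina (HiSeq, paired reads) and on Ion Torrent (Proton). Mice are named as in the labels, UNT for untreated and ILB for IL-1β. The labels give no other difference between the groups, no gene was targeted, and the RNA was that of the whole organ. In such bulk RNA, fewer cells of a type and less RNA per cell cannot be told apart. The question was which of these factors differed between IL-1β and saline, and whether the answer held on both platforms and with 3 aligners.

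AP-1 is a pair of bZIP proteins, usually one of the Jun group with one of the Fos group, that binds the DNA sequence TGACTCA. Several of its genes are classic immediate-early genes. IL-1β acts through kinase cascades that end in JNK, p38 and ERK. These cascades raise transcription of Jun and Fos within minutes, after which some members decline quickly. In liver, AP-1 is known for its part in regeneration and in the acute phase response. Atf3 and Batf are bZIP partners of Jun proteins, and Maff is a small Maf protein that lacks an activation domain.

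All 10 are protein-coding genes in the annotation (NCBIM37, the Ensembl gene models), and the tables gave the same positions padded by 250 bases on each side for Illumina and 246 for Ion Torrent. Jun lies at chr4:94715725-94718913 on the minus strand, Junb at chr8:87500811-87502617 on the minus strand and Jund at chr8:73221638-73224515 on the plus strand. Each of these 3 has its exons in 1 block, with no intron. Fos lies at chr12:86814840-86818223 and Batf at chr12:87027619-87050037, both on the plus strand of the same chromosome. Fosl2 lies at chr5:32438845-32460204 on the plus strand, and Fosb at chr7:19888070-19895394 on the minus strand. Fosl1 lies at chr19:5447703-5455945 on the plus strand. Atf3 lies at chr1:192994175-193007219 on the minus strand, and Maff at chr15:79177971-79189502 on the plus strand. The exons of Junb and Jund have a GC content of 62.6% and 62.7%, against 51.9% to 58.0% for the other 8.

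Promoter sequences are shown because several AP-1 genes are known to be regulated by bZIP proteins near their own starts. The RefSeq table (GRCm38.p6) held 250 bases upstream of the start for 9 of the 10 genes, 3 of them for Maff. Both strands were searched for the AP-1 site TGACTCA, the cAMP response element (CRE) TGACGTCA, its variants TGACATCA and TTACGTCA, the short core TGACG that is also part of the CRE, the CArG box bound by Srf, and TATAAA. Below, capitals mark the matches. Those of Jun are at chr4:95052223-95052472 (minus strand), Junb at chr8:84978749-84978998 (minus), Atf3 at chr1:191183334-191183583 (minus), Batf at chr12:85686470-85686719 (plus), Fos at chr12:85473640-85473889 (plus) and the middle start of Maff at chr15:79347270-79347519 (plus), all in GRCm38.p6.
Jun: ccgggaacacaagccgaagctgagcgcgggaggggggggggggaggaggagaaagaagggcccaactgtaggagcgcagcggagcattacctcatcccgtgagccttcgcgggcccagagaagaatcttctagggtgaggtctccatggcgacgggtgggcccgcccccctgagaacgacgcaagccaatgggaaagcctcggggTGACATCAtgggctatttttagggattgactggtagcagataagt
Junb: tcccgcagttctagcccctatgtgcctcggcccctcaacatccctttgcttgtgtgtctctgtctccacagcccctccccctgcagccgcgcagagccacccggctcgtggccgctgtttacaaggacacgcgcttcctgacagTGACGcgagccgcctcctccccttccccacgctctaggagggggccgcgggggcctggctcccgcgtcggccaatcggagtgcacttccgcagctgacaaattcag
Atf3: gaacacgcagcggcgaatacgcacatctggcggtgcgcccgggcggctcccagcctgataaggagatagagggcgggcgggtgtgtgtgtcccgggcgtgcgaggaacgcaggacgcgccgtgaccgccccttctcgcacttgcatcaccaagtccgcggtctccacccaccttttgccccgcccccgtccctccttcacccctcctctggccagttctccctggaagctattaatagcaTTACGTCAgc
Batf: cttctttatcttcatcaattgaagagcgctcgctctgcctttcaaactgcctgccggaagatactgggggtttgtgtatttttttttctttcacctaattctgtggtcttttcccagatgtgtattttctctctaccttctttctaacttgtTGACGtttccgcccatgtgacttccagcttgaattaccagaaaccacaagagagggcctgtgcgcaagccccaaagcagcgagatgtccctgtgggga
Fos: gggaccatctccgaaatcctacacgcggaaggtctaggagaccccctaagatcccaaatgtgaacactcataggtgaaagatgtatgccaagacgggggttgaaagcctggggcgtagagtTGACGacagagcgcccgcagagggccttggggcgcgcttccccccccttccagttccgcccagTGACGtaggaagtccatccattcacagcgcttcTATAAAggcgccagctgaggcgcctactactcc
Maff: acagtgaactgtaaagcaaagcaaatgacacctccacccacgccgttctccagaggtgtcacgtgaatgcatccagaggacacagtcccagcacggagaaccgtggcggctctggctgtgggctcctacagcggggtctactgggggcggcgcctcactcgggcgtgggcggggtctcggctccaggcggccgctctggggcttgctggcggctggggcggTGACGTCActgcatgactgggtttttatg
Jun held TGACATCA 45 to 38 bases before its start, a variant found in 2.93% of the 32851 RefSeq windows of the same length. Atf3 held TTACGTCA 10 to 3 bases before its start, found in 0.4475% of the windows. The middle start of Maff held the whole CRE TGACGTCA 29 to 22 bases upstream (1.55% of windows). Both of these sites contain the core as well. A further Maff start held TGACATCA 45 to 38 bases upstream, with the core elsewhere, and the first Maff start held no match. The core TGACG, on either strand, was in 17.8% of all windows, and Fos held it at 2 places, 129 to 125 and 66 to 62 bases upstream, beside TATAAA 33 to 28 bases upstream (12.4% of windows). Junb held the core 106 to 102 bases and Batf 98 to 94 bases upstream. Fosb also held the core, and the windows of Fosl2 and Jund held none of the motifs. No window of a member held TGACTCA or a CArG box, which 4.46% and 1.47% of all windows held. Sites more than 250 bases upstream were not searched, so the absence of a motif holds for these windows only, also for Fos.

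Total counts per library were 10568530 to 11046256 in the Illumina STAR table and 12199528 to 12723326 in the Ion Torrent STAR table. Levels are in CPM, counts per 1000000 reads of the library after TMM normalisation. In the Illumina STAR table the 10 hepatocyte markers summed to 103586 to 124306 CPM in untreated and 83546 to 95586 CPM in IL-1β mice. Of 12 neutrophil markers, 8 were tested and called higher, most of which passed the filter on low counts only through the IL-1β mice, and the list summed to 2.22 to 6.41 CPM in untreated against 53.3 to 118 CPM in IL-1β mice. Of the Kupffer cell and macrophage markers, 1 was called higher and 3 lower of 11 tested. The T, B and NK lymphocyte markers had 0 higher and 2 lower of 8, and on Ion Torrent with STAR 1 higher and 3 lower. Endothelial markers had 2 higher and 4 lower of 10, stellate and fibroblast markers 0 and 3 of 10, cholangiocyte markers 2 and 0 of 4, and the hepatocyte markers 2 and 3 of 10. Over all genes tested, 22.7% were called higher and 22.9% lower. On Ion Torrent with STAR, 6 endothelial, 4 Kupffer cell and macrophage, 4 hepatocyte and 2 stellate and fibroblast markers were lower, with the same counts higher. Every marker of these lists found in the tables had some reads. The part of these cells in the values below was not tested. The Illumina library of untreated mouse UNT_9584 stood apart in its GC-rich genes: the 903 well-counted genes with an exon GC content of at least 57.2% lay a median of 0.53 below the rest of its group on the log2 scale, against -0.27 to 0.26 in the other 9 Illumina libraries and 0.17 in the Ion Torrent library of the same mouse. Read lengths were not analysed here.

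Of the 10 members, 6 were called higher in the Illumina STAR table with IL-1β (Jun, Junb, Jund, Atf3, Fosl2 and Batf, the last of which passed the filter on low counts only through the IL-1β mice) and 0 lower, where 22.7% of all genes tested were called higher and 22.9% lower. The 3 Jun genes rose together. Junb had the largest change of the 3 at 3.43-fold, Jun rose 2.83-fold and Jund 2.73-fold, and in none of them did the groups overlap, IL-1β above untreated, as in 17.6% of all genes. Jun, the founding partner of AP-1, had 63, 65, 72, 110 and 64 reads in mice UNT_9574, UNT_9575, UNT_9576, UNT_9580 and UNT_9584. In mice ILB_9577, ILB_9578, ILB_9579, ILB_9582 and ILB_9583 it had 212, 205, 195, 180 and 150. The untreated mice lay close together except for UNT_9580, and even that mouse was below every IL-1β mouse. After normalisation the level was 18.5 ± 2.13 CPM against 6.53 ± 1.85 CPM (mean ± SD, n = 5 each). This is a log2 fold change of 1.50 (SE 0.17, edgeR quasi-likelihood, adjusted p = 4.11e-06). A transcript of the opposite strand, BC042782, shares 232 exon bases with Jun and had 0 to 7 reads in untreated and 2 to 5 in IL-1β mice.

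Junb, whose protein can replace Jun in the pair and is a weaker activator at many sites, had 114, 21, 81, 152 and 25 reads in the same untreated mice. In the IL-1β mice it had 282, 265, 283, 195 and 166. Its untreated mice spread more than those of Jun, Jund, Atf3 and Fosl2, with UNT_9575 and UNT_9584 far below the other 3 and a 7.56-fold range, while the IL-1β mice spanned 1.68-fold. Mean levels were 23.4 ± 5.05 CPM with IL-1β and 6.81 ± 4.93 CPM without. Its log2 fold change was 1.78 (SE 0.39, edgeR, adjusted p = 0.00151) and was 1.56 (adjusted p = 0.00299) without UNT_9584.

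Jund, the member usually present before any stimulus, had 78, 79, 116, 120 and 54 reads in the untreated mice and 271, 177, 214, 175 and 244 in the IL-1β mice. The lowest untreated mouse was UNT_9584, and the lowest IL-1β mouse stood above the highest untreated one. The means were 21.3 ± 3.89 and 7.77 ± 2.42 CPM, and the log2 fold change 1.45 (SE 0.20, edgeR, adjusted p = 2.48e-05), or 1.33 (adjusted p = 5.46e-05) without UNT_9584. The opposite-strand gene Gm11175, with 543 shared exon bases, had 0 reads in untreated and at most 2 in IL-1β mice.

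**Figure D1:**
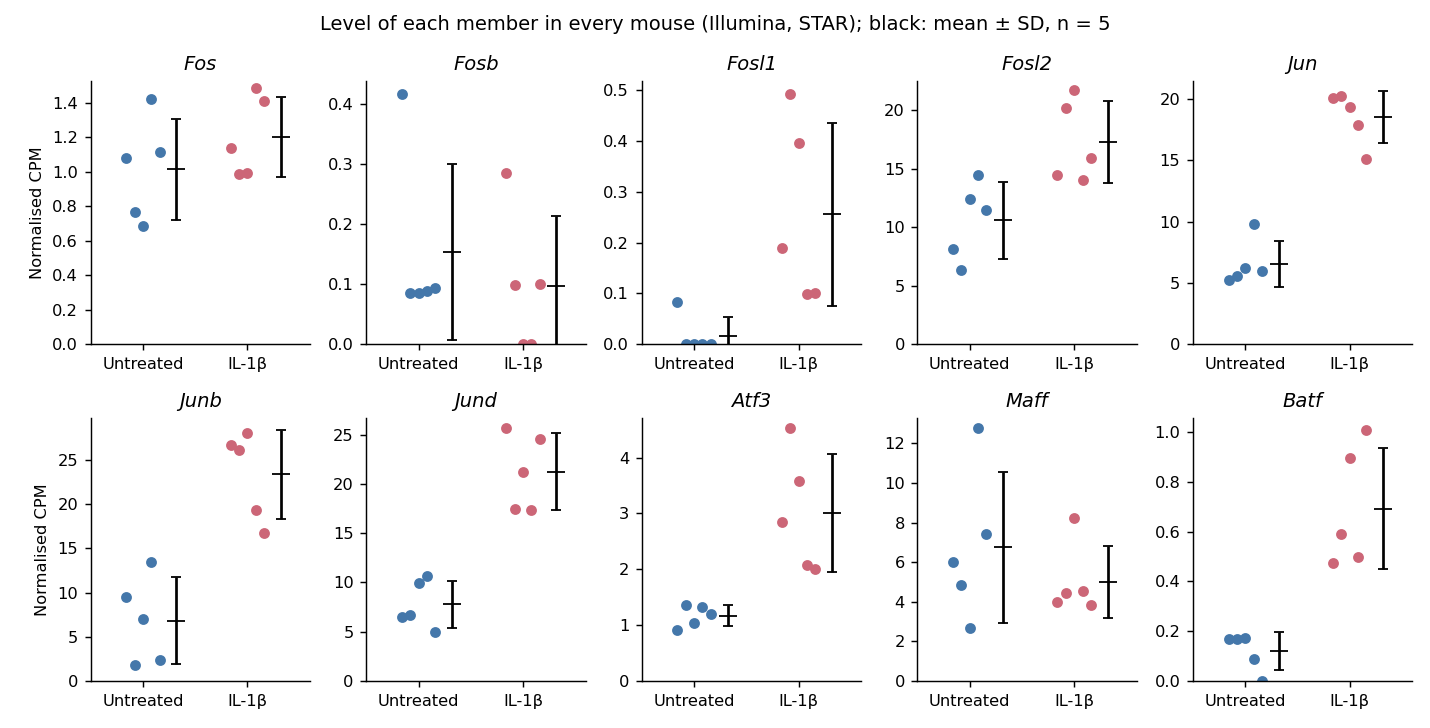
Normalised CPM (vertical axes, each from 0) of the 10 genes in the 5 untreated (blue) and 5 IL-1β (red) mice of the Illumina STAR table, 1 point per mouse, with mean ± SD in black. For Jun, Junb, Jund, Atf3 and Batf every red point lies above every blue point, while for Fos, Fosb, Fosl2 and Maff the groups overlap. The red points of Fosl1 also lie above its blue points, though its lowest IL-1β and highest untreated mice had 1 read each.

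The Fos genes behaved less alike. Fosl2, which encodes Fra-2, was the Fos gene with the most reads, at 98, 75, 145, 163 and 124 in the untreated mice and 153, 205, 219, 142 and 158 in the IL-1β mice. The groups overlapped: untreated UNT_9580 exceeded 3 of the IL-1β mice in reads, and ILB_9582 alone in CPM (14.48 against 14.08). Fosl2 rose 1.63-fold (log2 fold change 0.71, SE 0.20, edgeR, adjusted p = 0.0100), from 10.6 ± 3.28 to 17.3 ± 3.47 CPM. The rank-sum test that the study used, run here on values without TMM normalisation, did not call it. In the Illumina GSNAP table the groups did not overlap in CPM.

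Fos itself, the prototype immediate-early gene, was scarce in both groups. The untreated mice had 13, 9, 8, 16 and 12 reads and the IL-1β mice 12, 10, 10, 15 and 14, a near-complete overlap. The means were 1.20 ± 0.23 CPM with IL-1β and 1.01 ± 0.30 CPM without. The log2 fold change was 0.25 with a 95% interval of -0.33 to 0.82 (edgeR, adjusted p = 0.498), so changes above 1.77-fold or below 0.80-fold lie outside the interval.

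Fosl1, which encodes Fra-1, had 1, 0, 0, 0 and 0 reads in the untreated mice and 2, 5, 4, 1 and 1 in the IL-1β mice. The sums were 13 reads against 1, a ratio per library total of 13.5 with an exact 95% counting interval of 2.02 to 572. That interval covers counting error only, and the gene did not pass the filter of at least 5 reads in 5 libraries of any table. In the Ion Torrent STAR table it had 7 reads over the IL-1β mice and 0 over the untreated mice, and the exact 95% counting interval of the ratio starts at 1.49. Of its 1707 exon bases, 1162 are shared with Ccdc85b on the opposite strand, which had 13 to 36 reads in untreated and 14 to 35 in IL-1β mice on Illumina. On Ion Torrent Ccdc85b had 93 to 110 reads in the untreated mice, in each of which Fosl1 had 0, and 39 to 92 in the IL-1β mice. Fosb had 5, 1, 1, 1 and 1 reads untreated and 3, 1, 0, 0 and 1 with IL-1β, a ratio of 0.57 with an interval of 0.15 to 1.91, so no difference was detectable at this depth. On Ion Torrent with STAR it had 8, 4, 0, 2 and 0 reads untreated and 4, 0, 0, 0 and 0 with IL-1β, sums of 14 and 4 reads with a ratio of 0.29 (0.071 to 0.938). That interval lies below 1 but covers counting error only, and the groups overlapped, with 8 of the 14 reads in mouse UNT_9574. The ratio was 0.29 (0.071 to 0.937) with GSNAP and 0.41 (0.13 to 1.12) with STAR + Bowtie2.

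Atf3, a stress-induced factor that often represses, had 11, 16, 12, 15 and 13 reads in the untreated mice and 30, 46, 36, 21 and 20 in the IL-1β mice. The untreated mice were nearly level in this table, and all IL-1β mice stood above them. The same untreated libraries had 9 to 19 reads with GSNAP and 8 to 18 with STAR + Bowtie2, again below all IL-1β mice. Atf3 rose 2.56-fold, from 1.17 ± 0.19 to 3.01 ± 1.06 CPM (log2 fold change 1.36, SE 0.26, edgeR, adjusted p = 0.000626).

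Batf, known from lymphocytes where it pairs with Jun proteins beside interferon regulatory factors, had 2, 2, 2, 1 and 0 reads untreated and 5, 6, 9, 5 and 10 with IL-1β. Every IL-1β mouse was above every untreated mouse, at a few reads per library. The fitted log2 fold change was 2.40 (SE 0.49, edgeR, adjusted p = 0.000877), and the sums of 35 and 7 reads gave a ratio of 5.17 with a counting interval of 2.26 to 13.8. In this table Batf passed the filter only through the IL-1β mice. The neutrophil marker list, higher in the same mice, is given above, and its part in the Batf reads was not tested.

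Maff, a small Maf protein that can shift the partners of other bZIP factors, had 72, 57, 31, 144 and 80 reads untreated and 42, 45, 83, 46 and 38 with IL-1β. The groups overlapped, with the highest value in untreated UNT_9580 and the lowest in untreated UNT_9576. The log2 fold change was -0.43 with a 95% interval of -1.14 to 0.29 (edgeR, adjusted p = 0.336). Without 1 mouse it ran from -0.68 (without ILB_9579) to -0.061 (without UNT_9580), with no call.

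Beside the 6 members called, 2 were tested and not called, and 2 were not tested. Of the members in this table, 0 had a lower value at an unadjusted p below 0.05 by edgeR, and limma-voom, DESeq2 and the rank-sum test also called 0 lower. Over all genes, 49.8% of the called ones were higher, a share that was 38.8% with library totals in place of TMM normalisation, a choice that shifted the centre of the log2 fold changes (median over genes averaging 10 or more reads) from 0.0047 to -0.12, and the same number of members, 6, was called higher. Among the members tested, groups without overlap, IL-1β above untreated, were found for Jun, Junb, Jund and Atf3, where 17.6% of all genes had them, and for Batf, in which the filter made such a separation likely. The rank-sum test called 5 members higher, all but Fosl2, and 13.8% of genes. That share is below the 17.6% of genes without overlap, which this test would call first, so it ranked values without TMM normalisation. Test and scaling thus changed together.

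The other tables gave the same 6 members higher in 4 cases and 5 members in the Ion Torrent STAR table. The share of all genes called higher was 23.7% with GSNAP and 22.9% with STAR + Bowtie2 on Illumina, and 20.3%, 22.5% and 22.8% with STAR, GSNAP and STAR + Bowtie2 on Ion Torrent. The member that missed the call was Fosl2, whose adjusted p lay near the limit (0.0590 by edgeR). Without UNT_9580, ILB_9582 or ILB_9577 it was called (adjusted p = 0.0175, 0.0349 and 0.0440 by edgeR), and without each of the other 7 it was not (0.0702 to 0.160). Its reads on Ion Torrent with STAR were 149, 100, 149, 187 and 156 untreated and 157, 193, 223, 143 and 181 with IL-1β. Untreated UNT_9580 again lay above 3 of the IL-1β mice in reads, and in CPM (14.8) above ILB_9577 (12.7) and ILB_9582 (12.2) only. The log2 fold change was 0.43 (SE 0.18, edgeR, adjusted p = 0.0590). It was 0.51 (adjusted p = 0.0318) with GSNAP and 0.46 (adjusted p = 0.0381) with STAR + Bowtie2.

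**Figure D2:**
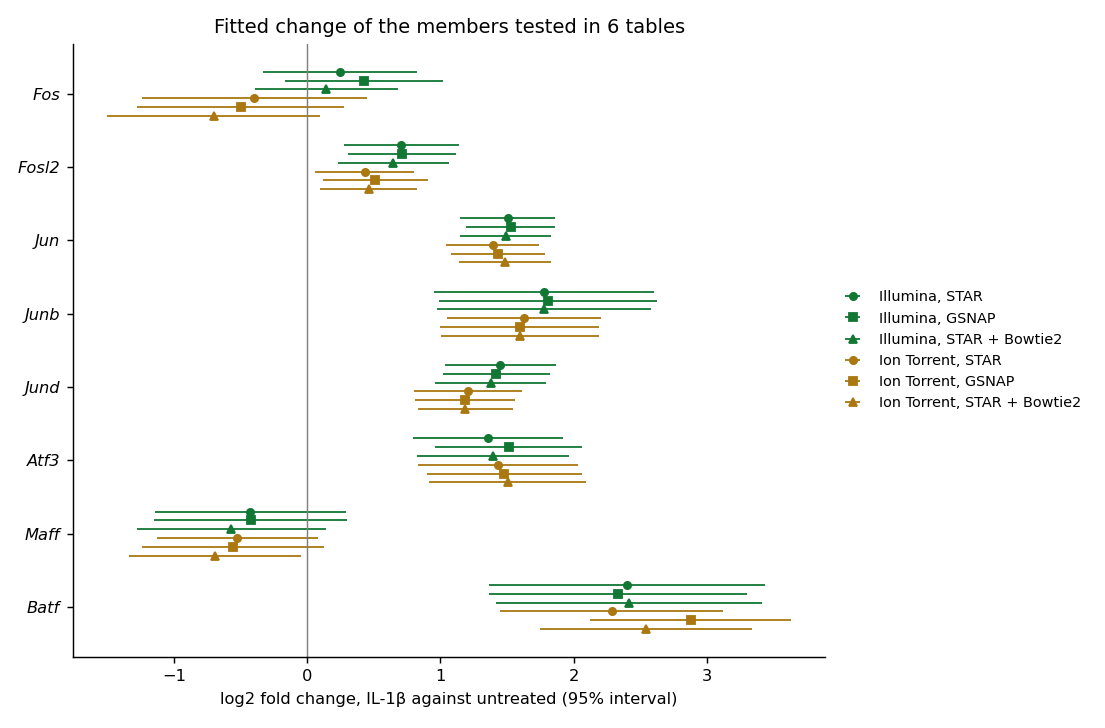
Log2 fold change of IL-1β against untreated (horizontal axis) with 95% intervals from edgeR for the 8 members tested, in 3 Illumina tables (green) and 3 Ion Torrent tables (brown). Jun, Junb, Jund, Atf3 and Batf lie above 0 with their intervals in all 6 tables. Fos lies above 0 on Illumina and below 0 on Ion Torrent with intervals that cross 0 in each.

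On Ion Torrent with STAR, Junb had 360, 175, 345, 694 and 534 reads in the untreated mice and 1021, 1225, 1647, 1083 and 922 in the IL-1β mice, a log2 fold change of 1.63 (SE 0.27, edgeR, adjusted p = 0.000125). Mouse UNT_9575 was the lowest here as on Illumina, but UNT_9584 was the second highest of the untreated mice. Jund had 325, 360, 350, 490 and 654 reads untreated and 832, 710, 1060, 885 and 1032 with IL-1β (log2 fold change 1.21, SE 0.19, adjusted p = 7.32e-05). Mouse UNT_9584, the lowest untreated mouse on Illumina, was the highest on Ion Torrent, and still below all IL-1β mice. Jun had 129 to 252 reads untreated and 380 to 567 with IL-1β (log2 fold change 1.39, adjusted p = 3.86e-06). Atf3 had 7 to 21 and 24 to 45 reads (1.43, adjusted p = 0.000610), and Batf had 1 to 5 and 11 to 18 (2.29, adjusted p = 0.000172). In these 5 genes the groups again did not overlap, though Batf reached 5 reads in only 1 untreated library here, so that it passed the filter through the IL-1β mice as on Illumina.

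Fos differed in direction between platforms without a call on either. On Ion Torrent with STAR the untreated mice had 17, 15, 10, 45 and 17 reads and the IL-1β mice 16, 10, 15, 9 and 21. Mouse UNT_9580 alone stood far above the rest. The log2 fold change was -0.40 (95% interval -1.24 to 0.45) and was 0.15 without UNT_9580. It was -0.50 with GSNAP and -0.70 with STAR + Bowtie2. Maff had 56 to 140 reads untreated and 32 to 86 with IL-1β (-0.53, adjusted p = 0.156), and its estimate was below 0 in all 6 tables, from -0.42 to -0.69, with no call in any. The lowest adjusted p for Maff was 0.0729 (edgeR, unadjusted 0.0366), on Ion Torrent with STAR + Bowtie2.

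The platform-by-treatment term, fitted to the STAR libraries of both platforms with the mouse as a block, was called in 0 of the 8 members and in 0.00642% of all genes. At an unadjusted p below 0.05 edgeR found 0 members, DESeq2 0 and limma-voom 1, and neither of the other tools called any. The smallest unadjusted p by edgeR was that of Fosl2, 0.0512, with a log2 difference of -0.27 (Ion Torrent minus Illumina, 95% interval -0.55 to 0.0015, adjusted p = 0.701). The difference was -0.16 (-0.67 to 0.34) for Junb, -0.20 (-0.62 to 0.23) for Jund and -0.095 (-0.40 to 0.21) for Jun. For Fos it was -0.59 (-1.38 to 0.21), for Maff -0.13 (-0.54 to 0.28), for Atf3 0.11 (-0.57 to 0.79) and for Batf -0.082 (-1.13 to 0.96), so the scarce genes leave wide intervals.

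The Jun genes had higher levels on Ion Torrent than on Illumina. The tables were normalised separately, so these ratios are a description. The Ion Torrent CPM of a mouse divided by its Illumina CPM, both with STAR, had a median over mice of 2.22 for Jun, 4.42 for Junb and 3.69 for Jund. It was 0.96 for Fosl2, 1.17 for Fos, 1.07 for Atf3 and 1.01 for Maff, close to the median of 0.96 over 11476 genes with a mean of at least 10 reads on both platforms. By the ratio of mean levels, Junb was above 99.9%, Jund above 99.8% and Jun above 98.4% of those genes. Batf, Fosb and Fosl1 averaged fewer than 10 reads and were left out of these ratios. The mean level of Batf was also higher on Ion Torrent, at 1.15 CPM with IL-1β and 0.23 CPM untreated. On Illumina it was 0.69 and 0.12 CPM. The 903 genes of high GC content had a median ratio of 1.53, against 0.92 for the other 8125 well-counted genes. Among mice the ratio for Junb ran from 2.75 in UNT_9574 to 18.0 in UNT_9584, with 7.26 the highest in the other 9 mice, and that for Jund from 2.62 to 10.2. Junb (62.6%) and Jund (62.7%) are rich in GC in their exons, Jun (55.5%) lies below the limit of 57.2% and Maff (58.0%), with a ratio near 1, lies above it. Each Jun gene has 1 exon block, and the other 7 members have 3 or 4. The part of base content and exon structure in these ratios was not tested.

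**Figure D3:**
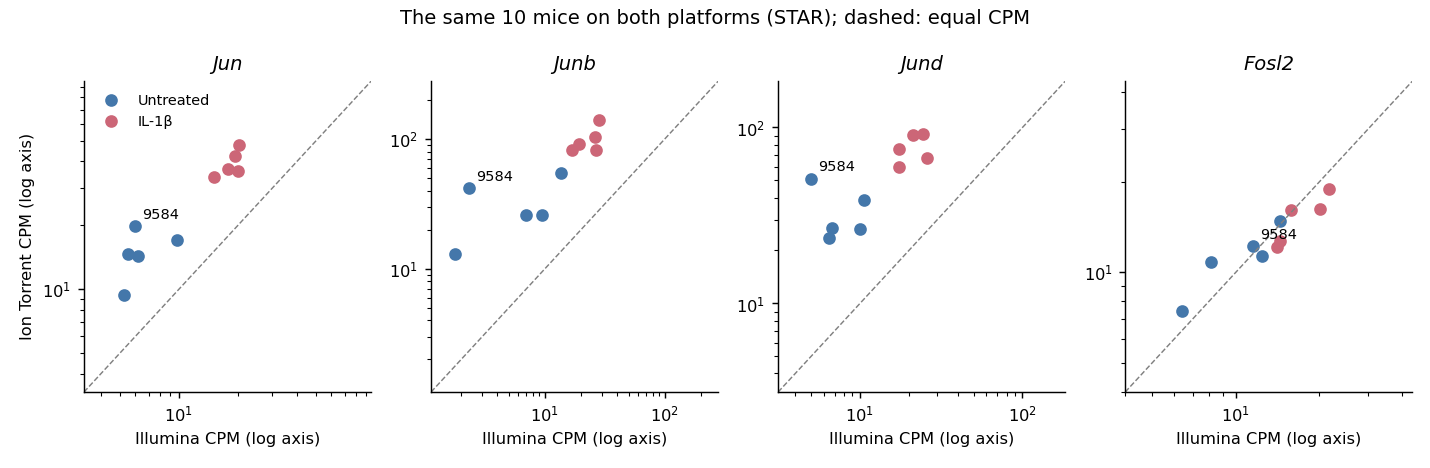
Normalised Ion Torrent CPM (vertical, log axis) against Illumina CPM (horizontal, log axis) of the same mice for Jun, Junb, Jund and Fosl2 with STAR, 1 point per mouse, the dashed line marking equal CPM. The Jun genes lie above the line in every mouse, with untreated UNT_9584 displaced to the left for Junb and Jund, while Fosl2 lies along it.

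The mice kept nearly the same order in their balance of Junb to Jund on both platforms, though not the same values. In the untreated mice UNT_9575, UNT_9584, UNT_9576, UNT_9580 and UNT_9574, Illumina gave 0.27, 0.46, 0.70, 1.27 and 1.46 Junb reads per Jund read. Ion Torrent gave 0.49, 0.82, 0.99, 1.42 and 1.11 for the same mice. The order was the same except for the last pair, UNT_9580 and UNT_9574. In the IL-1β mice the ratio was lowest in ILB_9583 on both platforms (0.68 and 0.89) and highest in ILB_9578 (1.50 and 1.73).

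Of the 8 members tested, 6 had their highest untreated level on Illumina in mouse UNT_9580, namely Fos, Fosl2, Jun, Junb, Jund and Maff. For all genes tested, this mouse was the highest untreated one in 19.2%. In the lists below it was highest for 10 of 32 other bZIP factors and 10 of 35 upstream genes. It was also highest for 8 of 22 immediate-early and stress genes and 2 of 18 genes with textbook AP-1 sites. On Ion Torrent with STAR, Fos, Fosl2, Junb and Maff were again highest in UNT_9580, but Jun, Jund, Atf3 and Batf in UNT_9584. The part of UNT_9580 in the contrast of the Illumina STAR table can be read from the estimates without it: 1.69 for Jun, 2.18 for Junb and 0.85 for Fosl2 on the log2 scale. The calls of Jun, Junb, Jund, Atf3, Batf and Fosl2 in this table held with any 1 mouse left out.

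Per kilobase of exon in the Illumina STAR table, Junb had the highest median level in both groups, and the order of the others changed. In untreated mice the medians in normalised CPM per kb were 3.85 for Junb, 2.83 for Maff, 2.34 for Jund, 1.97 for Fosl2 and 1.86 for Jun, and the ranges of each neighbouring pair overlapped. Atf3 (0.61) stood below Jun without overlap, and next to Fos (0.46) with overlap. Batf (0.17), Fosb (0.024) and Fosl1 (0) followed. With IL-1β, Junb (14.5) stood above Jund (7.38) without overlap. Jund and Jun (6.07) overlapped, and both stood above Fosl2 (2.72) without overlap. Maff (2.09), Atf3 (1.43), Batf (0.62) and Fos (0.48) followed, each overlapping the one before it. Fosl1 (0.11) and Fosb (0.026) came last and overlapped with each other. The order was another on Ion Torrent with STAR, where the untreated medians were 14.5 for Junb, 9.28 for Jund, 4.58 for Jun, 3.42 for Maff and 1.93 for Fosl2, and the 3 Jun genes led in both groups.

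The summed level of the Jun family was 4.89 to 14.2 CPM per kb in untreated and 22.3 to 30.0 in IL-1β mice. Its make-up was less different: the median share of Junb was 41.6% (19.5% to 57.4%) untreated and 49.3% (41.1% to 53.8%) with IL-1β. The share of Jun was 21.5% (18.0% to 38.1%) and 21.0% (20.9% to 25.1%), and that of Jund 35.6% (24.7% to 46.2%) and 27.0% (22.6% to 37.9%). The ranges overlapped for all 3, and the untreated shares varied more among mice. The Fos family summed to 1.44 to 3.10 CPM per kb untreated and 3.09 to 4.37 with IL-1β on Illumina, a slight overlap, and to 1.82 to 4.09 and 2.46 to 3.89 on Ion Torrent, where the IL-1β range lay within the untreated one. Fosl2 made up most of it in every mouse, with a median share of 79.7% untreated and 79.9% with IL-1β, and Fos made up 19.5% and 15.4%. On Ion Torrent the median share of Junb was 51.4% untreated and 57.5% with IL-1β, and that of Jun was 13.1% and 13.0%.

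**Figure D4:**
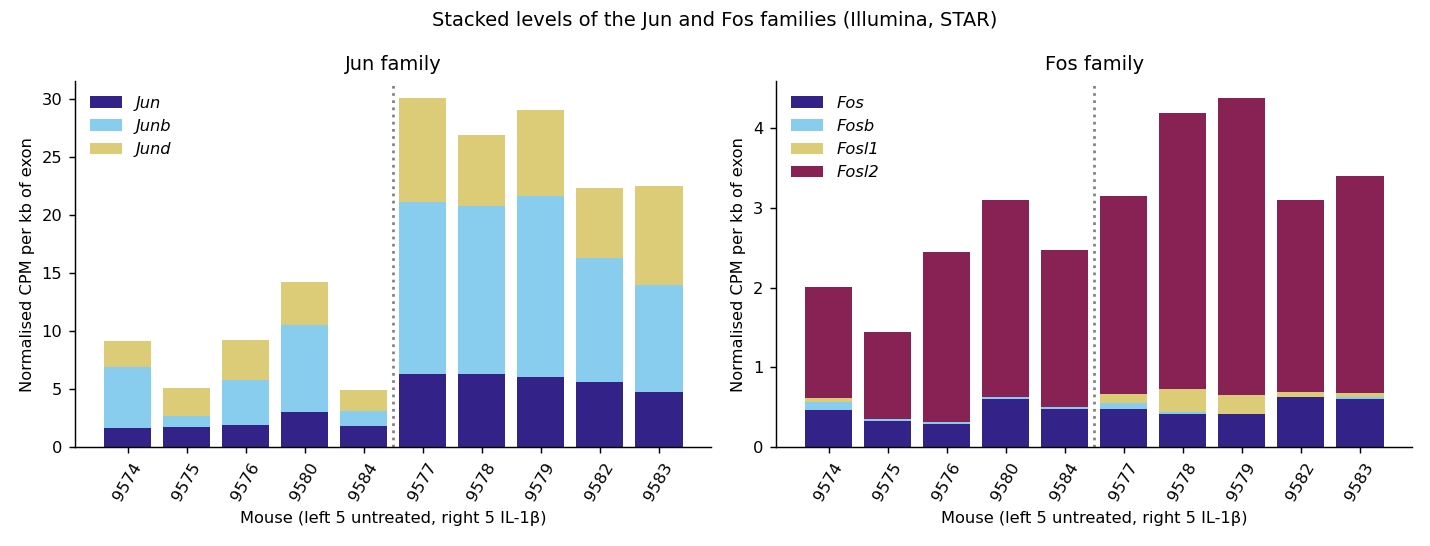
Stacked bars of normalised CPM per kb of exon (vertical axes from 0) for the Jun family (left) and the Fos family (right) in each mouse of the Illumina STAR table, 5 untreated mice to the left of the dotted line and 5 IL-1β mice to the right. The Jun family stands at 22.3 or more in every IL-1β mouse and at 14.2 or less in every untreated mouse, and Fosl2 fills most of each Fos family bar.

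Of 36 other bZIP factors, 32 were tested, and 16 were called higher and 9 lower (22.7% and 22.9% of all genes), with a median log2 fold change of 0.44 against 0 over all genes and 1.40 over the 8 members tested. Ddit3 (CHOP, a stress factor of the C/EBP type) rose 7.14-fold, from a mean of 62.6 to 395 reads. Nfil3, a repressor at PAR bZIP sites, rose 3.71-fold, and Creb3l2, a membrane-bound factor of the secretory pathway, rose 2.83-fold. The PAR bZIP factors Hlf and Dbp, activators with a daily rhythm in liver, fell by 2.29 and 1.82 on the log2 scale. Bach2, a repressor that pairs with small Maf proteins, fell by 2.12.

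Of 36 kinases and nuclear factors upstream of AP-1, 35 were tested, and 12 were called higher and 6 lower, with a median of 0.18. Over all genes the shares were 22.7% higher and 22.9% lower. Map3k14 (NIK, a kinase of the non-canonical NF-κB pathway) rose 4.21-fold. Elk1 and Srf, which together bind the serum response element of Fos, rose 3.32-fold and 2.39-fold, while Fos did not pass the test. Map2k6, an activating kinase of p38, fell by 3.63 on the log2 scale, from a mean of 100 to 7.0 reads. Rps6ka1 (RSK1), an ERK target, fell by 1.20 and Elk3 by 0.78.

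Of 24 other immediate-early and stress genes, 22 were tested, and 13 were called higher and 2 lower, with a median of 0.76, beside the same shares over all genes. Btg2, an antiproliferative gene, rose 7.97-fold, Ctgf (a matricellular protein) 3.68-fold and Sgk1, a serum-induced kinase, 2.59-fold. The call of Sgk1 was lost with the rank-sum test on values without TMM (adjusted p = 0.110). None of the genes called lower had a mean of 50 reads. Of 25 genes with textbook AP-1 sites, 18 were tested, and 12 were called higher and 2 lower, with a median of 1.88. Over all genes 22.7% were called higher and 22.9% lower. The genes of this list not tested had too few reads. Timp1, a metalloproteinase inhibitor (0 to 2 untreated reads), and Sele, the endothelial selectin (0 to 1), had fewer than 5 reads in every untreated mouse, as had the zinc finger factor Egr2 (0 to 1) in the list before, so both lists' counts and medians depend in part on the filter on low counts. These 3 were named after their values were seen. The metallothioneins Mt2 and Mt1, which bind zinc, rose 137-fold and 78.1-fold. Nqo1, a quinone reductase, fell by 0.86 on the log2 scale (edgeR, adjusted p = 0.0310) and Vegfa, a vascular growth factor, by 0.32 (adjusted p = 0.0424). Leaving out 1 mouse changed this count of 2 lower to between 0 and 2: Nqo1 lost its call without UNT_9576, ILB_9577, ILB_9578, ILB_9583 or UNT_9584, and Vegfa without UNT_9575, UNT_9576, ILB_9578, UNT_9580, ILB_9582 or ILB_9583. These genes answer to other factors as well, and AP-1 binding was not measured.

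**Figure D5:**
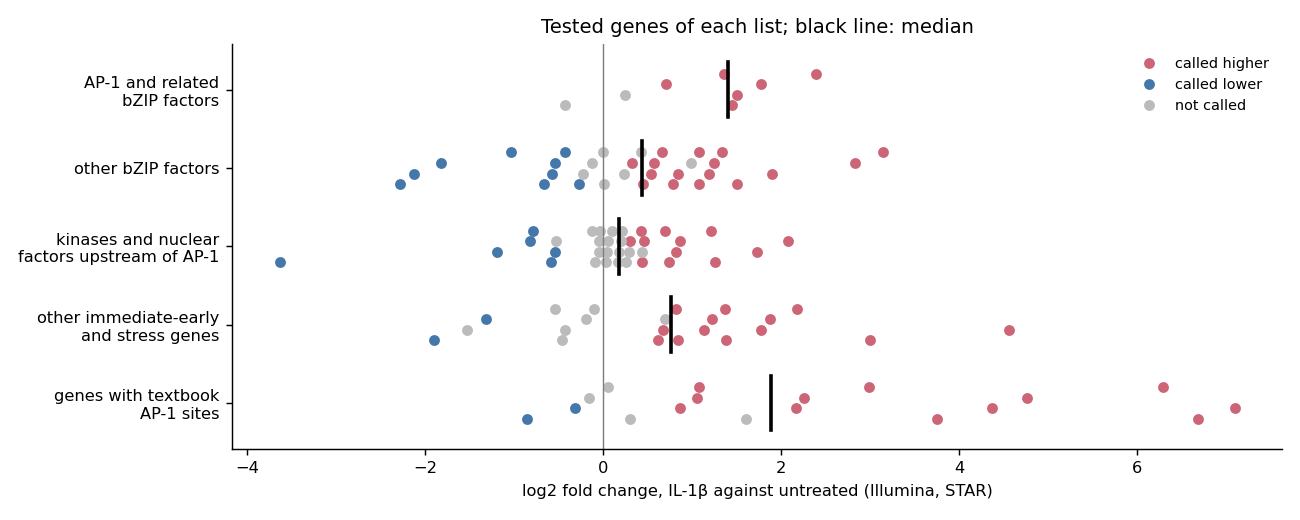
Log2 fold change of IL-1β against untreated (horizontal axis, Illumina STAR table) for each tested gene of 5 lists, 1 point per gene, red for called higher, blue for called lower and grey for not called, with the list median as a black line. The medians are 1.40 for the AP-1 and related bZIP factors, 0.44, 0.18, 0.76 and 1.88 for the lists beneath, in that order.

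The genes most like Junb, Jun and Jund over the 10 mice were found by the mean absolute difference in log2(CPM + 1), each gene centred on its untreated mean, among 9278 genes with a mean of at least 50 reads, members left out. Those nearest to Junb were Socs3 (0.29), an inhibitor of cytokine receptor signaling, Chac1 (0.29), a glutathione-degrading enzyme, and Sqle (0.36), an enzyme of sterol synthesis. Socs3 had 48 to 266 reads untreated and 380 to 950 with IL-1β. Those nearest to Jun were Kcnj8 (0.13), Kctd15 (0.15) and Tnfrsf21 (0.17). Those nearest to Jund were Rrp9, Tut1 and Arpc1b (0.16 each). The nearest genes of Junb lay farther off than those of Jun and Jund.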

How the data were processed

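Liver RNA of 10 mice was sequenced on 2 platforms, giving 20 libraries and 6 tables of counts. The deposited values are whole-number counts per gene, which were read as pairs on Illumina and as single reads on Ion Torrent. That unit is not given in the sources used here. The authors aligned the reads to mm9 with STAR 2.5.1b, GSNAP or STAR followed by Bowtie2 2.2.9 (versions also in the submitters' processing notes). With PORT they removed rRNA and mitochondrial reads, re-sampled the reads of all libraries within a table to one depth and counted by Ensembl v67 gene models. The deposited gene totals still differed by group: in each of the 6 tables every untreated library had a larger total than every IL-1β library (10887640 to 11046256 against 10568530 to 10655860 in the Illumina STAR table). Both kits are strand-specific. Whether counting used the strand is not given in the sources used here.

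Genes with at least 5 reads in 5 libraries of any table (15578) were fitted with edgeR 4.0.16 (quasi-likelihood, TMM, R 4.3.3), with Benjamini-Hochberg adjustment over all of them and calls at an adjusted p below 0.05. Totals were 10568530 to 12008799 reads per library in the Illumina and 12199528 to 16439683 in the Ion Torrent tables. Replicates are separate mice. The Illumina STAR table was the main one. The platform-by-treatment term was fitted to both STAR tables with the mouse as a block, since both libraries of an animal carry its number. Their deviations from the group correlated at 0.591 to 0.736 for 9 mice and 0.249 for UNT_9584. A symbol on 2 rows (in the lists only) was taken as the longer gene model. Levels between genes are CPM per kb of exon (NCBIM37). The members and lists were chosen with earlier results of these data known. Named genes are all members and, per list, up to 3 called higher and up to 3 called lower with the most extreme fold changes at a mean of at least 50 reads, and the 3 genes nearest in pattern to the 3 called members with the largest change among those with a mean of at least 50 reads (which leaves out Batf). Alternatives were the rank-sum test (on values without TMM), limma-voom 3.58.1, DESeq2 1.42.0, library totals, other filters, the other tables and leaving out each mouse. One gene that the rule for named genes selects is not reported here. The fits were tested on simulated data. Summaries used pandas 2.3.3, scipy 1.17.1 and numpy 2.4.6 under Python 3.11.15, and plots matplotlib 3.10.9.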

Additional observations from a re-analysis of the deposited data

Results flagged for a closer look

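In 16 groups of 5 mice (8 members by 2 treatments, log2(CPM + 1), Illumina STAR table), 2 had a mouse whose distance to its nearest neighbour took more than 0.71 of the group's range, Dixon's 95% limit for 5 values. Chance alone marks about 1 group in 20.

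Jun in untreated mouse UNT_9580 had 110 reads against 63 to 72 in the other 4, and the gap was 0.744 of the range. On Ion Torrent the same mouse had 216 reads within a range of 129 to 252. Without it the log2 fold change of Jun was 1.69.

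Maff in IL-1β mouse ILB_9579 had 83 reads against 38 to 46 in the other 4, and the gap was 0.782 of the range. This mouse was the highest of its group on Ion Torrent too, with 86 reads within 32 to 86. Without it the log2 fold change of Maff was -0.68 (edgeR, adjusted p = 0.124).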

How the results depend on the processing

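The number of members called higher was 6 without any 1 mouse and 5 to 7 under the other alternatives, and 0 were called lower under any of them. It was 7 without a filter, where Fosl1 was called, and 5 with a mean of at least 5 reads, which left out Batf. Jun, Junb, Jund and Atf3 kept their call under every alternative to the Illumina STAR fit, with log2 fold changes of 1.33 to 1.69, 1.53 to 2.18, 1.19 to 1.59 and 1.16 to 1.51. They also kept it in the Ion Torrent STAR table without any 1 mouse, at 1.26 to 1.51, 1.43 to 1.92, 1.10 to 1.41 and 1.25 to 1.56. Batf was called wherever it was tested, having passed the filter through the IL-1β mice in each table, so this is no separate support. Fosl2 lost its call with the rank-sum test (0.53), where test and scaling changed together, and in the Ion Torrent STAR table (0.43). Fos, never called, changed sign in the Ion Torrent tables: -0.40 with STAR, -0.50 with GSNAP and -0.70 with STAR + Bowtie2. The cause was not tested.

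The rank-sum test called 2154 genes higher and 3823 lower, against 3541 and 3575 by edgeR. This move is not that of the test alone, since it ranked values without TMM normalisation. Of the genes it called, 36.0% were higher, beside 38.8% by edgeR with library totals and 49.8% by edgeR with TMM. Of the immediate-early and stress genes, 4 were lower with STAR, 5 with GSNAP and 4 with STAR + Bowtie2 on Ion Torrent, against 2. Of the genes with textbook AP-1 sites, 1 was lower in place of 2 with the rank-sum test, limma-voom and the Ion Torrent STAR and GSNAP tables, and 0 to 2 without 1 mouse.

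The paired fit of the platform-by-treatment term, with the mouse as a block, and the fit with no block both called 0 members. It called 1 gene of all with the block and 0 without, 10 with GSNAP, 12 with STAR + Bowtie2 and 10 without untreated UNT_9584. Some members' small differences changed sign. Without 1 mouse they ran from -0.21 to 0.046 for Jun, -0.38 to 0.18 for Junb, -0.34 to 0.095 for Jund, -0.016 to 0.33 for Atf3 and -0.42 to 0.45 for Batf. For Jun, Junb and Jund only leaving out UNT_9584 turned them. With GSNAP Atf3 was at -0.036 and Batf at 0.52, and with STAR + Bowtie2 Batf was at 0.11. Depth limits Fosb, Fosl1 and Batf, at 0 to 10 reads per Illumina STAR library.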
